A study of Caenorhabditis elegans with 2 samples.

Results

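The genes described here encode a part of the nuclear subunits, and some assembly factors, of the mitochondrial respiratory chain and of the ATP synthase in Caenorhabditis elegans. They were taken by symbol from the Ensembl annotation of the WBcel235 genome: nuclear protein-coding genes named nuo-, sdha-, sdhb-, sdhd-, ucr-, cox- or atp-, with mev-1, cyc-1 and isp-1. The rule gave 38 of 19973 nuclear protein-coding genes. They comprised 6 genes of complex I, 5 of complex II, 7 of complex III, 15 of complex IV and 5 of the ATP synthase. Peaks of REC-8, a cohesin subunit of meiosis, were mapped at their starts by chromatin immunoprecipitation and sequencing (ChIP-seq). A further 41 nuclear genes of the same pathway carry other symbols and are counted apart below.

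The respiratory chain passes electrons from NADH and succinate to oxygen through complexes I to IV and pumps protons across the inner mitochondrial membrane. The ATP synthase, also called complex V, lets the protons flow back and makes ATP. Complexes I, III and IV and the ATP synthase mix subunits from nuclear genes with subunits made from mitochondrial DNA, whereas complex II is wholly nuclear in its coding. REC-8 is a kleisin, the subunit that closes the cohesin ring around DNA, and in worms it acts in the meiotic germ line. The adult germ line of the worm is rich in mitochondria.

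All samples belonged to 1 group. They were whole hermaphrodites of strain YL563, young adults collected 48 hours after release from starved, bleach-synchronized L1 arrest. The transgenic line stably carried REC-8 fused at its C terminus to GFP-FLAG, and an antibody against GFP was used, per the descriptions. A separate label gives rec-8 as the antibody. There were 2 biological replicates and no control library analysed here, so no comparison between conditions was possible and no test was made. Because whole animals were used, a peak does not show in which tissue the protein was bound.

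The authors deposited a relaxed list of peaks and background for each replicate (21160 peaks for replicate 1 and 21503 for replicate 2). Another relaxed list came from the reads of both replicates together (18953 peaks, here the pooled list). The reproducible set held 606 peaks, chosen from these lists by the irreproducible discovery rate, and they were the 606 pooled peaks of highest signal. Signal is each peak's own value from the authors' caller and was read only as a rank within 1 list. A percentile gives the share of the peaks of a list with a signal at or below that of the peak. The read depth is unknown, as the files hold no counts. A gene was at a summit when the highest point of a peak lay within 500 bp of the annotated start of any of its transcripts, and the strongest such summit was taken.

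Of the 38 genes, 3 were at a peak of the reproducible set (7.89%, exact 95% Clopper-Pearson interval 1.66 to 21.4). These were atp-5, cox-5A and cox-5B, and 1.56% of all nuclear protein-coding genes were at such a peak. The 3 proteins have different places in the machinery: atp-5 encodes subunit d of the stalk of the ATP synthase, and cox-5A and cox-5B encode nuclear subunits around the catalytic core of cytochrome c oxidase. With a window of 250 bp only cox-5B was left, when 0.891% of all genes were at a reproducible peak. With a window of 1000 bp 4 of the 38 genes were at one (all genes 2.21%). In the upper 50% of the reproducible set by signal only 1 of the 38 genes was left, atp-5, and no share of all genes was available there. Among as many of the strongest peaks of each replicate list as the reproducible set holds, 2 of the 38 genes were at a summit in replicate 1 (all genes 1.31%) and 3 in replicate 2 (all genes 1.72%).

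The sequences under the summits of atp-5 and cox-5A are shown because these were the strongest summits of the group. They are written in the direction of the gene, in lower case, with the 21 bases centred on the summit in capitals. Both were read from the RefSeq WBcel235 genome, and bases in annotated exons were left out. The stretch for atp-5 is V:11124036-11124185 on the minus strand and that for cox-5A is III:12905084-12905284 on the plus strand.
atp-5: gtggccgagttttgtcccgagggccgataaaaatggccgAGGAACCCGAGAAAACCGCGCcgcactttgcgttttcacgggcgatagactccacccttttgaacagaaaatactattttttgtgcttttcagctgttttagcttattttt
cox-5A: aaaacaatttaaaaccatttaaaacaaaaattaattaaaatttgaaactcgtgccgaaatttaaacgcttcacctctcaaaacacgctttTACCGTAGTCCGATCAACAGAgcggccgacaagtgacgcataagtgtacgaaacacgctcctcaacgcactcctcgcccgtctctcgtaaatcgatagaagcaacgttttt

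The atp-5 peak (V:11123921-11124350) had a signal of 146.9 in the pooled list, where it ranked 154. Its signal was 68.6 in replicate 1 and 77.5 in replicate 2, at percentiles of 99.05 and 99.3. The summit lay 269 bp upstream of the start of atp-5 and only 50 bp from the start of lmtr-3, a neighbour that is read in the opposite direction. The gap between these genes is 318 bp, and the summit fell between their starts, nearer to that of lmtr-3, which encodes a Ragulator complex protein.

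The cox-5A peak (III:12904969-12905398) had a signal of 99.4 and ranked 384. Its signal was 45.6 in replicate 1 and 51.1 in replicate 2, at percentiles of 97.3 and 98.0. The summit lay 307 bp upstream of the start, with no other protein-coding start within 500 bp. The cox-5B peak (I:9788471-9788900) had a signal of 85.7 and ranked 531, near the lowest signal of the reproducible set, 80.6. Its signal was 34.9 in replicate 1, at a percentile of 93.5, and 51.3 in replicate 2, at 98.0. The summit lay 39 bp upstream of a cox-5B start, again with no other protein-coding start near. In both replicates all 3 genes were in the top 10% of peaks by signal, and the summits of the 2 replicates were 11, 7 and 56 bp apart at atp-5, cox-5A and cox-5B.

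The relaxed lists reach far weaker peaks and show the rest of the group. In the pooled list 22 of 38 genes were at a summit (57.9%, interval 40.8 to 73.7), where 27.4% of all nuclear protein-coding genes were. In replicate 1 it was 18 genes, with 28.2% of all genes at a summit, and in replicate 2 it was 22, with 29.8%. Both replicate lists had a summit at 14 genes (36.8%, interval 21.8 to 54.01; all genes 15.3%), and all 14 were also in the pooled list. At 9 of these 14 genes the summits of the 2 replicates lay within 100 bp, as they did for 43.0% of the 3050 genes of any kind with a summit in both. A further 4 genes were at a summit in replicate 1 but not in replicate 2, and 8 in replicate 2 but not in replicate 1. No relaxed list had a summit at 12 genes (31.6%; all genes 55.5%). With genes at no summit placed lowest, the median pooled signal over the 38 genes was 24.5, close to the lowest of the list, 23.6, and over all genes the median gene was at no summit.

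Among the strongest 10% of pooled peaks were summits at 8 of 38 genes (21.1%, interval 9.55 to 37.3; all genes 4.65%). In order of signal these were atp-5, cox-5A, cox-5B, atp-4, cox-14, cyc-1, atp-1 and nuo-2. The last of them, nuo-2 at a percentile of 90.1, was just inside that limit, and ucr-2.2 at 88.01 was the next below it. Only atp-5, cox-5A, cox-5B and atp-4 were in the top 10% of all 3 relaxed lists (10.5%, interval 2.94 to 24.8; all genes 2.07%). In the replicate lists the top 10% held summits at 7 of the 38 genes in replicate 1 (all genes 4.29%) and at 8 in replicate 2 (all genes 5.42%). With a window of 250 bp 4 of the 8 genes of the pooled top 10% were left, since the summits of atp-5, cox-5A, atp-4 and cyc-1 lay farther from the start. Over the 14 genes with a summit in both replicates the median difference between the replicates was 14.4 percentile points, and 7 of the 14 had the higher percentile in replicate 1.

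**Figure D1:**
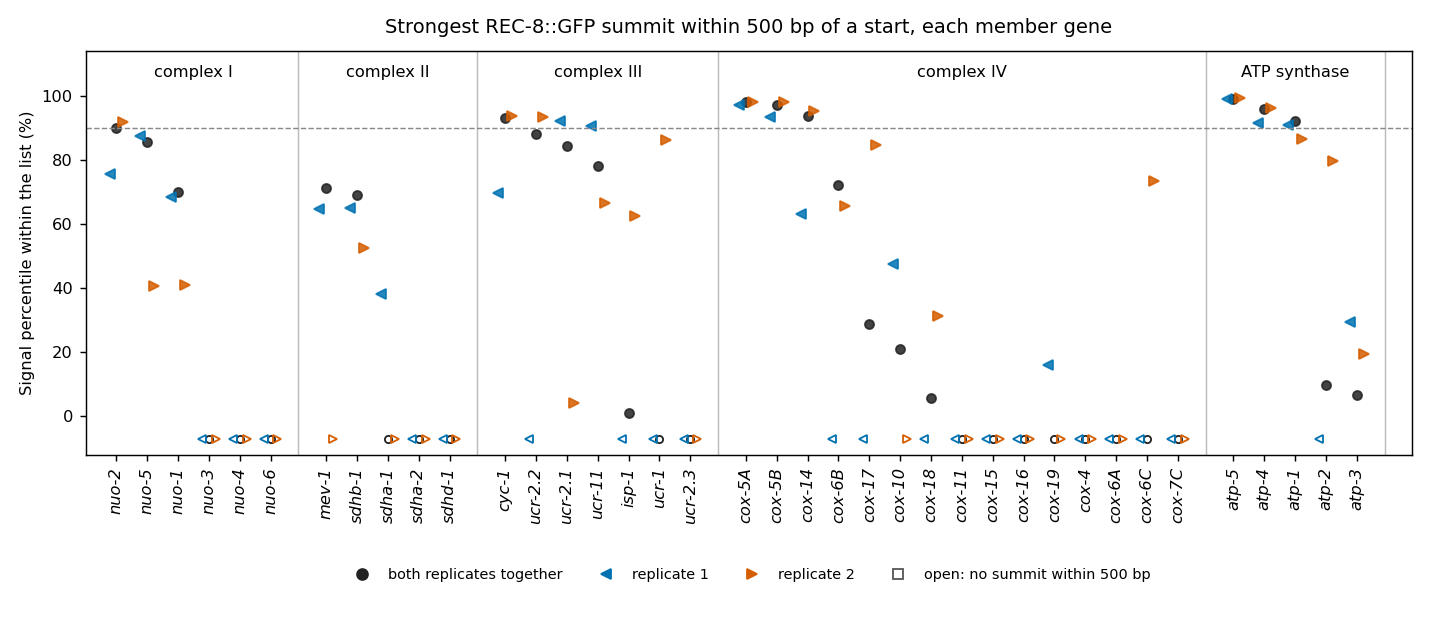
Percentile of the strongest summit within 500 bp of a start (y axis, percent of the list's peaks at or below that signal) for each of the 38 genes (x axis), by complex. Circles are the pooled list and triangles the 2 replicates, open symbols mark a list with no summit near, and the dashed line is the limit of the top 10%: atp-5, cox-5A, cox-5B and atp-4 lie above it in all 3 lists.

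Complex I takes electrons from NADH, and 3 of its 6 genes named nuo- were at a pooled summit (interval 11.8 to 88.2%). This interval included the 27.4% of all genes. The same 3 genes were at summits in both replicates. The nuo-2 gene, for a subunit of the peripheral arm (NDUFS3 in mammals), had a pooled signal of 50.98 with the summit 35 bp inside the gene, and signals of 24.7 in replicate 1 and 28.8 in replicate 2. It thus was at a percentile of 75.8 in replicate 1 and of 92.0 in replicate 2. The replicate summits of nuo-2 were both upstream of the start, at positions -144 and -30, so the place inside the gene held in the pooled list only. The nuo-5 gene, for the iron-sulfur subunit called NDUFS1 in mammals, had a pooled signal of 45.3. Its signal was 29.5 in replicate 1 and 15.03 in replicate 2, at percentiles of 87.6 and 40.7. The nuo-1 gene, for the subunit that binds NADH, had a pooled signal of 36.4 and a summit 199 bp upstream, between nuo-1 and the ribosomal protein gene rpl-36.A, which starts 434 bp from the summit. A non-coding RNA gene, C09H10.13, started 37 bp from this pooled summit. The nuo-1 signal was 22.97 in replicate 1 and 15.1 in replicate 2, with summits at positions -30 and -200 from the start, so only that of replicate 2 was at the place of the pooled summit. The genes nuo-3, nuo-4 and nuo-6 had no summit within 500 bp in any list.

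Complex II, succinate dehydrogenase, also belongs to the citric acid cycle. Of its 5 genes 2 were at a pooled summit (interval 5.27 to 85.3%), and none was in the top 10% of any list. The interval included the share of all genes at a pooled summit, 27.4%. The mev-1 gene, for the membrane subunit that binds cytochrome b heme, had a pooled signal of 36.8 with the summit 13 bp inside the gene. It was at a summit in replicate 1 (signal 22.2, percentile 64.6) but not in replicate 2. The sdhb-1 gene, for the iron-sulfur subunit, had a pooled signal of 36.04 with the summit 32 bp inside the gene. Its signal was 22.2 in replicate 1 and 16.3 in replicate 2, at percentiles of 64.9 and 52.4. A paralog of the flavoprotein gene, sdha-1 on X, was at a weak summit in replicate 1 alone (signal 18.4, percentile 38.01). The other paralog, sdha-2, and the anchor gene sdhd-1 were at none. The count for this complex changed with the replicate: 3 genes were at a summit without replicate 2, that is in replicate 1, and 1 without replicate 1.

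Complex III passes electrons from ubiquinol to cytochrome c, and 5 of its 7 genes were at a pooled summit (interval 29.04 to 96.3%, all genes 27.4%). The cyc-1 gene, for cytochrome c1, had the highest pooled signal, 57.8, with a summit 326 bp upstream. Its signal was 23.2 in replicate 1 and 31.1 in replicate 2, and the summits of the replicates lay 6 bp apart although the percentile was 69.6 in replicate 1 and 93.7 in replicate 2. Of the 3 genes for core protein 2, ucr-2.2 on X had a pooled signal of 47.7 and was at a summit in replicate 2 (signal 30.8) but not in replicate 1. Its paralog ucr-2.1, also on X, had a pooled signal of 44.4 and a summit 186 bp upstream, 200 bp from the start of nmat-1. It was strong in replicate 1 (signal 33.4, percentile 92.2) and near the bottom of the list in replicate 2 (signal 12.2, percentile 3.96). The third, ucr-2.3 on III, was at no summit, and the values of these paralogs are uncertain where reads could match more than 1 of them. The ucr-11 gene had a pooled signal of 39.98, with the summit 119 bp upstream in an exon of dad-1, but its summits in the replicates lay 489 bp apart. The isp-1 gene, for the Rieske iron-sulfur protein, had a summit 4 bp from its start at the floor of the pooled list (signal 23.7, percentile 1.02). Replicate 2 listed it higher (signal 17.8, percentile 62.4) and replicate 1 did not list it. The core protein 1 gene ucr-1 was at a summit in replicate 2 alone (signal 24.3, percentile 86.3). Without replicate 1 the count for the complex was 6 and without replicate 2 it was 3.

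Complex IV, cytochrome c oxidase, hands the electrons to oxygen. The cox- symbols name 7 genes for subunits and 8 for assembly factors. Of the subunit genes 3 were at a pooled summit (42.9%, interval 9.90 to 81.6) and of the assembly genes 4 (50%, interval 15.7 to 84.3). Both intervals included the 27.4% of all genes. Among subunits, cox-6B joined cox-5A and cox-5B with a pooled signal of 37.3 and a signal of 18.3 in replicate 2, and had no summit in replicate 1. Its summit lay 87 bp upstream of an inner start of a gene annotated with 87197 bp. Counted by the outermost start alone it was not at a summit, the only such loss among the 22 genes. The subunit gene cox-6C was at a summit in replicate 2 (signal 19.96), while its nearest pooled summit was 513 bp from the start, the closest of any member outside the window. The subunit genes cox-4, cox-6A and cox-7C were at none. The nearest pooled summit to cox-6A was strong (signal 119.03, percentile 98.66) but outside the window, at position -806 from a start.

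Among the assembly genes cox-14 had the highest pooled signal, 59.9. Its signal was 21.9 in replicate 1 and 35.1 in replicate 2, at percentiles of 63.1 and 95.3. The summit lay 188 bp upstream of cox-14 and 108 bp from the start of rde-4, a gene for a double-stranded RNA binding protein read in the opposite direction. The place differed between replicates, with the cox-14 summit at position -32 in replicate 1 and at -210 in replicate 2, which are 178 bp apart. The other 3 were weak in the pooled list: cox-17, for a copper chaperone, at a signal of 27.2, cox-10, for an enzyme of heme A synthesis, at 26.1, and cox-18, for a membrane insertion factor, at 24.2. Each of those had a summit in 1 replicate alone, which was replicate 1 for cox-10 (percentile 47.5) and replicate 2 for cox-17 (percentile 84.6) and cox-18 (percentile 31.3). In the pooled list their percentiles were 21.1, 28.7 and 5.59, in that order. The cox-19 gene was at a summit in replicate 1 alone (signal 16.2), and cox-11, cox-15 and cox-16 were at none.

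For the ATP synthase, every nuclear gene named atp- was at a pooled summit, 5 of 5 (interval 47.8 to 100%, all genes 27.4%), and 3 of the 5 were in the pooled top 10% (all genes 4.65%). This did not hold for its genes with other symbols. Of those, asb-1 (percentile 78.6) and asg-1 (percentile 88.7) were at a pooled summit, while asb-2, asg-2 and hpo-18 had none in any list. Among the atp- genes, atp-4, for coupling factor 6 of the stalk, came below atp-5 with a pooled signal of 71.9 (V:6427301-6427730). Its signal was 32.7 in replicate 1 and 38.8 in replicate 2, at percentiles of 91.6 and 96.3. This summit was 404 bp upstream of atp-4, the farthest of any member inside the window, and lay in an exon of alh-4, an aldehyde dehydrogenase gene that ends 95 bp before atp-4 on the same strand. Next came atp-1, for the alpha subunit of the catalytic head, with a pooled signal of 55.2 and a summit 3 bp from its start. The start of mcrs-1, a neighbour read in the opposite direction, lay 187 bp from that summit. There the signal was 31.9 in replicate 1 and 24.3 in replicate 2, at percentiles of 90.8 and 86.4.

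The other 2 genes were at the bottom of the pooled list. For atp-2, which encodes the catalytic beta subunit, the pooled signal was 24.7, at a percentile of 9.88. That summit lay 256 bp upstream of atp-2 and 277 bp from the start of C34E10.10, a neighbour read in the opposite direction. The gap between these genes is 532 bp. Replicate 2 had its summit at position -498 from the atp-2 start, and so nearer to C34E10.10. It was at a far higher rank in that list (signal 21.6, percentile 79.6), and replicate 1 had no summit. For atp-3, which encodes the subunit that joins the stalk to the head, the pooled signal was 24.3, with 17.5 in replicate 1 and 13.2 in replicate 2, at percentiles of 6.57, 29.5 and 19.5. The full count thus includes weak peaks: 3 of the 5 genes were at a summit in the upper 50% of the pooled list (all genes 16.5%), and 2 with a window of 250 bp (all genes 17%). With 5 to 15 genes in a complex the intervals overlap one another, and no difference between the complexes was tested.

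**Figure D2:**
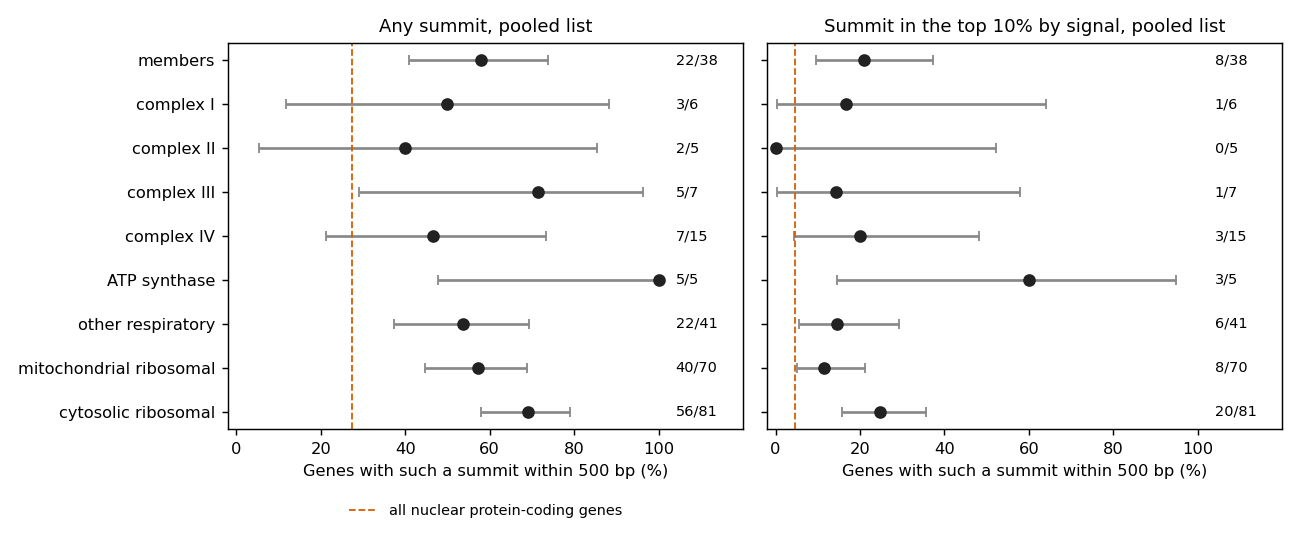
Share of genes with a pooled summit within 500 bp of a start (left) and with one in the top 10% of the list by signal (right), x axes in percent of genes. Points are shares with exact 95% intervals, numbers at the right are genes called of genes in the group, and the dashed line is the share of all nuclear protein-coding genes (27.4% and 4.65%): the intervals of the complexes overlap, and cytosolic ribosomal protein genes had the highest share among the gene groups larger than a complex in both panels (69.1% and 24.7%).

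Summits at these genes lay close to the start and mostly upstream. The median distance over the 22 genes was 125.5 bp, against 211 bp over all 5472 protein-coding genes with a pooled summit. In 8 of 22 genes (36.4%) the summit was within 50 bp of a start, against 12.7% of all genes. It was upstream of the start in 15 of 22 genes (68.2%) and in 57.1% of all genes. The strongest peaks were not the closest: atp-5, cox-5A, atp-4 and cyc-1 had their summits 269 to 404 bp upstream, while cox-5B and atp-1 had theirs within 50 bp. Many worm transcripts have a leader RNA spliced onto their 5′ end, and transcription then begins upstream of the annotated start. Whether this bears on the positions at these genes was not tested.

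**Figure D3:**
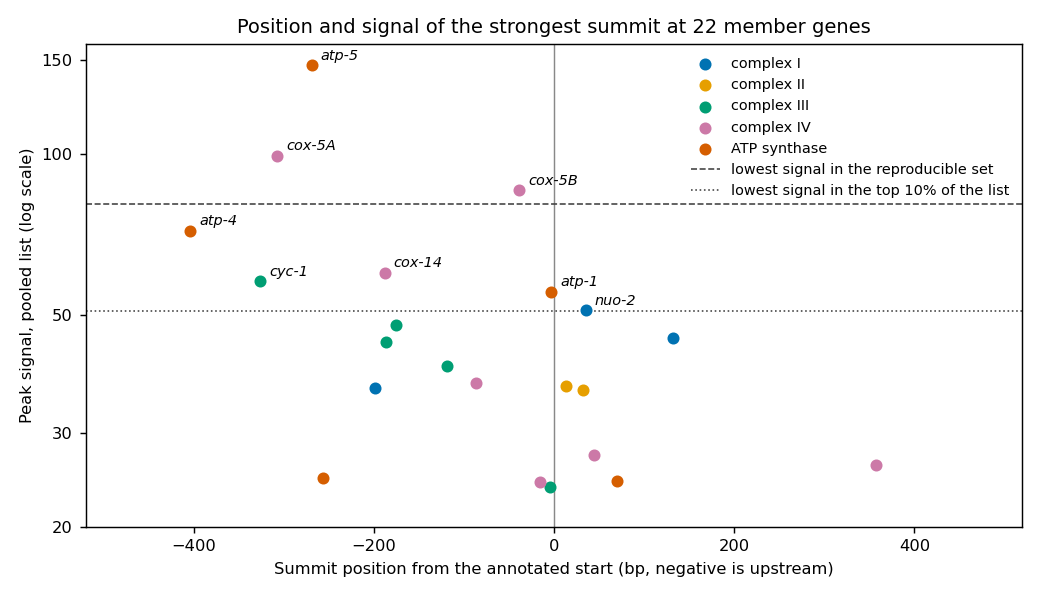
Position of the strongest pooled summit from the annotated start (x axis, bp, negative is upstream) against its signal (y axis, log scale) for the 22 genes with a summit, coloured by complex. The dashed line is the lowest signal of the reproducible set (80.6), with atp-5, cox-5A and cox-5B above it, and the dotted line is the lowest signal of the top 10% (50.8).

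The surroundings of the genes are compact. Another protein-coding start lay within 500 bp of the summit at 10 of 22 genes (45.5%), against 17.7% of all genes with a summit. At 20 of the 22 the start of the respiratory gene was the nearest protein-coding start, about the share over all genes with a summit (91.1%). The exceptions in the pooled list were atp-5 and cox-14. An upstream neighbour read in the opposite direction within 500 bp stood beside 14 of the 38 genes (36.8%; all genes 9.09%), and 9 of these 14 were at a pooled summit (all such genes 36.5%). A neighbour on the same strand that ended at most 150 bp before the gene, the spacing typical of worm operons, stood before 10 of 38 (26.3%; all genes 7.88%). Of these 10 genes 6 were at a pooled summit (all such genes 47.5%). Of the 14 genes with neither neighbour 7 were at a summit (all such genes 24.5%). The part of gene spacing in the counts was not tested.

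Genes for tRNAs, snoRNAs and snRNAs were not near these summits. None of the 22 summits had the start of such a gene within 1000 bp, against 4.35% of the summits of all genes. With so low a share over all genes, a count of 0 among 22 does not set the group apart. The nearest was 1997 bp away, at cox-10.

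Members were on all 6 nuclear chromosomes. At a pooled summit were 6 of 11 on I (36.1% of all protein-coding genes there), 3 of 5 on II (27.2%), 6 of 10 on III (36.7%), 2 of 5 on IV (27.8%), 3 of 4 on V (20.7%) and 2 of 3 on X (21.3%).

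The sequence around the summits had a median GC content of 39% in 200 bp (range 25 to 52.5%), against 37.5% at the 5004 separate summits of all protein-coding genes. It exceeded the mean of both flanks, 1000 bp away, at 8 of 22 genes. No such share over the summits of all genes was available, so this count cannot be called particular to the group. Of 4 motifs searched on either strand in these 200 bp, the GC box CCGCCC was in 5 of 22 windows (22.7%; all summits 6.79%). The GA repeat GAGAGA was in 2 (all summits 14.6%), at ucr-2.2 and cox-5A. The E2F-like motif TTCGCGC was in 1 (all summits 2.30%), at cox-5B, and the B box core GGTTCGA, an element inside tRNA genes, was in 0 (all summits 2.52%). In cox-5A the repeat is read on the other strand, as tctctc near the 3′ end of the stretch printed above.

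The GC box windows belonged to mev-1, ucr-2.1, cox-6B, atp-1 and atp-2. The matches are shown in 30 bases, in the direction of the gene, with the box in capitals, for all but atp-1, to let the flanks of the box be compared. They lie at III:10334215-10334244 for mev-1, X:12018203-12018232 for ucr-2.1, III:2786153-2786182 for cox-6B and III:5228184-5228213 for atp-2, all on the plus strand of WBcel235.
mev-1: ttttgaaacgcaCCGCCCtgtttctttttt
ucr-2.1: cgtatttatcgaCCGCCCaattgttttcag
cox-6B: ctttgaaaataaCCGCCCgtgtttaaattt
atp-2: gccccgctcatcGGGCGGtctagcctgttt
The box ran in the gene's direction at mev-1, ucr-2.1 and cox-6B and in the reverse direction at atp-2. Its centre was 47, 211, 34 and 218 bp upstream of the start, in that order.

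Other genes of the same pathway carry different symbols. Of 41 such nuclear genes, for further complex I and ATP synthase subunits, cytochrome c, and assembly and inhibitor proteins, 22 were at a pooled summit (53.7%, interval 37.4 to 69.3) and 2 at a reproducible peak (4.88%, interval 0.596 to 16.5). The stronger of the latter was sco-1, for a copper chaperone of complex IV. It had a pooled signal of 123.3, with 71.8 in replicate 1 and 51.5 in replicate 2, and a summit 207 bp upstream with no other protein-coding start near. The other was ndua-2, for a complex I subunit, with a pooled signal of 92.9, and 40.6 and 48.9 in the replicates. Its summit was 284 bp upstream of ndua-2 and 244 bp from the start of the chaperone gene dnj-29. Complex I thus had a gene at a reproducible peak only when its genes with other symbols were counted.

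The 70 mitochondrial ribosomal protein genes had 40 at a pooled summit (57.1%, interval 44.7 to 68.9) and 2 at a reproducible peak. The 81 cytosolic ribosomal protein genes had 56 (69.1%, interval 57.9 to 78.9) and 14. Over all nuclear protein-coding genes the shares were 27.4% at a pooled summit and 1.56% at a reproducible peak. No difference between these groups and the 38 genes was tested. Mitochondrial DNA itself, which codes for further subunits of complexes I, III and IV and of the ATP synthase, held 22 of the 606 reproducible peaks. Of its 12 protein-coding genes 8 were at such a peak, at signals of 1957 to 8377, where the highest nuclear signal was 421.4. No control library was analysed here and the amount of mitochondrial DNA was not measured. These signals therefore do not compare binding on mitochondrial and nuclear DNA.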

How the data were processed

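REC-8::GFP ChIP-seq peak lists from 2 biological replicates were used. Per the notes deposited with the files, the authors called each list with a control file, and made the reproducible set from the 3 relaxed lists. The sources used here do not give the aligner, peak caller or thresholds. The deposited signal (column 7) is the caller's value per peak. The deposited q-value is on a −log10 scale and was not used for selection, since it is at its ceiling of 2.37 throughout the reproducible set. The deposited summit offset was added to the peak start. Depth is unknown. The ce10 lists were not used here.

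Positions are ce11, the same assembly as WBcel235: 0 peaks ended past a chromosome. Genes came from Ensembl release 115 and sequence from RefSeq. Python 3.11.15, numpy 2.4.6, pandas 2.3.3, scipy 1.17.1 and matplotlib 3.10.9 were used, and summit search was checked on simulated peaks. The members, lists and motifs were chosen with earlier results of these data known, and the limits for close neighbours after the values were seen. Genes described are those at a reproducible peak, the 4 strongest of each complex, those in the top 10% of both replicates, those at the edge of the window and those at no summit. Further genes were added to account for every member. Intervals cover the counting of genes only, and neighbouring genes can share a peak. The labels call the 2 replicates biological and say nothing further of their cultures.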

Additional observations from a re-analysis of the deposited data

How the results depend on the processing

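The 9 counts of members and their median signal were recomputed under other windows, starts, list depths, replicates and member rules, in 87 cases. Of these 75 stayed within 1.5 times the count or, for the median, within an interval so wide that its lower end was a gene at no summit, so the median says little of stability. Some of the 75 could not have changed. No summit had a tRNA, snoRNA or snRNA start within 1000 bp, so leaving out such members removed no gene. Leaving out assembly factors could not alter complexes I to III or the ATP synthase. Leaving out genes whose summit lay nearer to another protein-coding start could not alter complexes I to III. With a window of 250 bp the genes at a reproducible peak were 1, those in the pooled top 10% were 4 and the ATP synthase genes at a pooled summit were 2. Of all genes 0.891% were then at a reproducible peak and 17% at a pooled summit. With a window of 1000 bp 23 genes were at a summit in both replicates and 12 complex IV genes at a pooled summit. The wider window raised the share of all genes at a pooled summit as well, to 40.2%. No such share was available for a summit in both replicates. In the upper 50% of each list by signal the counts were 1 at a reproducible peak, 4 in the top 10%, 4 for complex IV and 3 for the ATP synthase. The top 10% was there taken within the shortened list, so its limit was stricter than in the full list. Of all genes 16.5% were at a summit in the upper 50% of the pooled list. For the reproducible peaks and the top 10% no share of all genes was available there. Without assembly factors 3 complex IV genes were at a pooled summit. Leaving out a replicate gave 1 to 3 for complex II and 3 to 6 for complex III. The windows, the upper 50% and the assembly factors change how many positions, peaks or genes are counted. The cause of the changes without a replicate was not tested. Without the 2 genes whose summit lay nearer to another protein-coding start, an alternative chosen after the data were seen, 2 genes were at a reproducible peak and 20 at a pooled summit. The pooled count was 28 at 1000 bp (all genes 40.2%) and 16 at 250 bp (all genes 17%). The median signal had no value at 250 bp, in the upper 50% or in replicate 1, as most members then had no summit, and the count in both replicates has none without a replicate. No paired analysis was possible because there is 1 group.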
